A study of Mus musculus with 51 samples.

Results

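The comparison described here asked what still differed from the wild type prostate after 12 h of RAD001. It set 5 arrays of ventral prostate from RAD001-treated AKT1 transgenic mice against 4 arrays from wild type mice on placebo, 9 of the 51 arrays of the series. The groups were taken from the sample titles and the genotype and treatment labels. RAD001-treated and placebo-treated transgenic mice were FVB-AKT1, wild type mice were FVB on placebo, and all were 8 to 10 weeks old on a standard diet. Transgenic mice on placebo at 12 h (4 arrays), RAD001-treated transgenic mice at 48 h (4 arrays) and wild type mice on placebo at 48 h (4 arrays) served as side references. Every wild type mouse received placebo, so an effect of the drug on wild type tissue was not measured. The promoter that drives the transgene, the dose of RAD001 and any pooling of glands are not stated in the labels.

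AKT1 is a serine/threonine kinase that is activated downstream of phosphoinositide 3-kinase. One of its outputs is mTOR complex 1, which promotes translation, lipid synthesis and the hypoxia-inducible factor that switches on glycolysis genes, and which restrains the transcription factors of lysosome genes. RAD001 (everolimus) inhibits mTOR complex 1, and the other outputs of AKT1, such as the FOXO factors and glycogen synthase kinase 3, lie outside that complex. The ventral prostate is a secretory gland of luminal epithelium on a basal layer, wrapped in smooth muscle and stroma.

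The values are linear probe set intensities, analysed as log2, and a difference is the RAD001 mean minus the wild type mean on the log2 scale with its standard error (SE). Of 9627 features tested, 1638 passed an adjusted p of 0.05 in limma (17% of the features), with 838 higher in RAD001 arrays (8.7%) and 800 lower (8.31%). The difference reached 2-fold for 141 of the features that were higher and 49 of those that were lower. Transgenic placebo arrays set against the same wild type arrays gave 1987 calls (20.6%, 9.62% higher and 11% lower), and RAD001 against transgenic placebo gave 142 (1.48%), 62 higher (0.644%) and 80 lower (0.831%). That last count ran from 31 (without transgenic placebo replicate 2) to 175 with single arrays left out. Because the 3 comparisons share arrays, their values are given side by side and no overlap between them is drawn.

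Some features of the arrays bear on these results. The 4 wild type arrays of 12 h stood apart from the other wild type arrays on the third principal component (16.1 to 23.7 against 1.29 to 8.47, with 9.3% of the variance). Of 9627 features 1650 were called between wild type at 12 h and at 48 h, beside 1638 between RAD001 and wild type at 12 h. The label gives no batch, and wild type time and any batch cannot be told apart, so values against wild type at 48 h are given beside results. Of 120 genes named here that were called against 12 h, 47 were not called against 48 h. Ap1ar, Tfdp1, Esrp2 and Stom were called against both, with opposite signs. RAD001 replicate 5 lay nearest to wild type on the second component (2.42, where the other RAD001 arrays reached down to -16.2 and wild type arrays lay between 14.5 and 21.2), and without it 1654 features were called. Some probe sets hold values of exactly 0 on single arrays, between 38 and 261 per array of 12 h, including Uqcr10 and Abcf1, which every cell uses. Such a gene is described here only as listed at 0. Probe sets were tested where their mean over all arrays reached a log2 of 6.20. Of the 120 called genes, 8 had a wild type mean below that level (Psca, Cxcl15, Ifit1, Fcgbp, Tesc, Pdk1, Atf3 and Pdzd11) and 4 a RAD001 mean below it (Th, Aqp5, Slc30a2 and Slc7a5), so the size of their differences rests on dim values. The number of arrays limits the precision, and the labels call the arrays biological replicates. Since whole tissue was read, fewer cells of a type and less RNA per cell cannot be told apart.

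Secretory genes of the male reproductive tract were bright. Spink1, a secreted protease inhibitor, averaged a log2 intensity of 13.2 in RAD001 and 13.1 in wild type arrays, and Msmb, a seminal plasma protein, 12.6 in RAD001 and 13.0 in wild type arrays. These genes do not tell the lobes of the prostate apart. The seminal vesicle genes Svs2, Svs4 and Svs5 were among those too dim to be tested. Both tested genes of the seminal vesicle and other lobes, Msmb and Pbsn, were not called in limma (0 of 2, also at an unadjusted p under 0.05).

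The 3 largest rises were those of Psca, Saa1 and Cxcl15. Psca, a prostate stem cell antigen anchored in the cell surface, had intensities of 4581, 2774, 2904, 3249 and 312 in the 5 RAD001 arrays, of 2263, 3264, 0 and 2892 in transgenic placebo arrays and of 23.8, 32.8, 45.7 and 44.7 in wild type arrays. Transgenic placebo replicate 3 is listed at 0. RAD001 arrays lay above wild type by a log2 difference of 5.86 ± 1.17 (adjusted p = 0.000511), which was 5.01 with a floor of 64, and replicate 5, the lowest, was still above every wild type array. Saa1, an acute-phase apolipoprotein, had 2316, 2093, 1931, 2476 and 704 in RAD001 arrays and 80.1, 73.2, 78.2 and 88.7 in wild type arrays, 21.9-fold higher (log2 4.45 ± 1.21, adjusted p = 0.00934). The chemokine gene Cxcl15 had 821, 764, 559, 422 and 199 in RAD001 arrays and 39.1, 42.7, 46.6 and 70.8 in wild type arrays (log2 3.35 ± 0.67). In none of these 3 genes did the 2 groups overlap, and against wild type at 48 h the differences were 5.21, 3.70 and 3.04, all called. Of 9 acute-phase and mucosal defence genes 3 rose (33.3%, where 8.7% of all features rose), namely Saa1, Cxcl15 and Pigr, with a median of 0.98. Pigr is also counted among the androgen-regulated prostate genes. Transgenic placebo arrays stood 4.10 above wild type for Saa1 and 3.63 for Cxcl15. RAD001 against transgenic placebo gave 0.35 for Saa1 and -0.28 for Cxcl15 (adjusted p = 0.993 and 0.986). For Psca that difference was 1.43 (adjusted p = 0.732) and turned to -0.43 without transgenic placebo replicate 3 (adjusted p = 0.984).

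Gde1, a membrane glycerophosphodiesterase, combined a large rise with small error. Its intensities were 962, 764, 911, 1305 and 329.9 in RAD001 arrays and 105, 121, 123 and 125 in wild type arrays (log2 2.72 ± 0.29, adjusted p = 4.99e-08). The groups did not overlap, and against wild type at 48 h the difference was 2.08 ± 0.29. Asrgl1, an asparaginase-like enzyme, had 1102, 777, 1289, 795 and 702 in RAD001 arrays and 178, 211, 209 and 297 in wild type arrays (log2 2.05 ± 0.28, adjusted p = 4.02e-06), and 2 of its 3 probe sets were called. Suco, which encodes a protein of the endoplasmic reticulum needed in bone, rose by 3.22 ± 0.69, the noncoding RNA Snhg11 by 2.24 ± 0.43 and the lysosomal sialidase gene Neu1 by 2.23 ± 0.64. These 3 were also called against wild type at 48 h (3.03, 2.03 and 2.08), although only 1 of the 2 probe sets of Neu1 was called.

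Most of the other large rises depended on the wild type arrays used. Nfil3, a basic leucine zipper repressor, was 2.14 ± 0.55 above wild type at 12 h and 1.45 ± 0.55 above wild type at 48 h (adjusted p = 0.0527). Tesc, a calcium-binding protein gene, had 84.2, 50.8, 89.2, 97.2 and 64.2 in RAD001 arrays, 14.6, 14.2, 14 and 28.3 in wild type arrays of 12 h and 40, 71.9, 61.8 and 42.9 in wild type arrays of 48 h. Its difference was 2.02 against 12 h and 0.51 against 48 h (adjusted p = 0.324), and since 3 of the 4 wild type arrays lay under the floor of 16, the first is set by that floor. The junction protein gene F11r (2.09) was listed at 0 on wild type replicate 2. Without that array its difference was 0.73 (adjusted p = 0.0206), and its difference against wild type at 48 h was 0.92 (adjusted p = 0.26). Uqcr10, a subunit of respiratory complex III, and Abcf1, a ribosome-associated ATPase, were both listed at 0 on wild type replicates 1 and 2. Uqcr10 had 1285, 1278, 1239, 1649 and 1280.1 in RAD001 arrays. On the other 2 wild type arrays it had 1450.1 and 1829, and the groups overlapped. Their calls (3.05 and 2.71) were lost without either of those wild type arrays (adjusted p up to 0.0577 and 0.0743) and against wild type at 48 h (-0.0087 and -0.093), and 1 of the 5 probe sets of Abcf1 was called. Ifit1, an interferon-induced gene, and the mucus protein gene Fcgbp rose by 2.35 ± 0.83 and 2.13 ± 0.68, and neither was called against wild type at 48 h. That of Ifit1 was lost without any single array other than RAD001 replicate 5 (adjusted p up to 0.11), and that of Fcgbp without wild type replicate 1 or 3 or RAD001 replicate 1, 2 or 4 (up to 0.138).

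**Figure D1:**
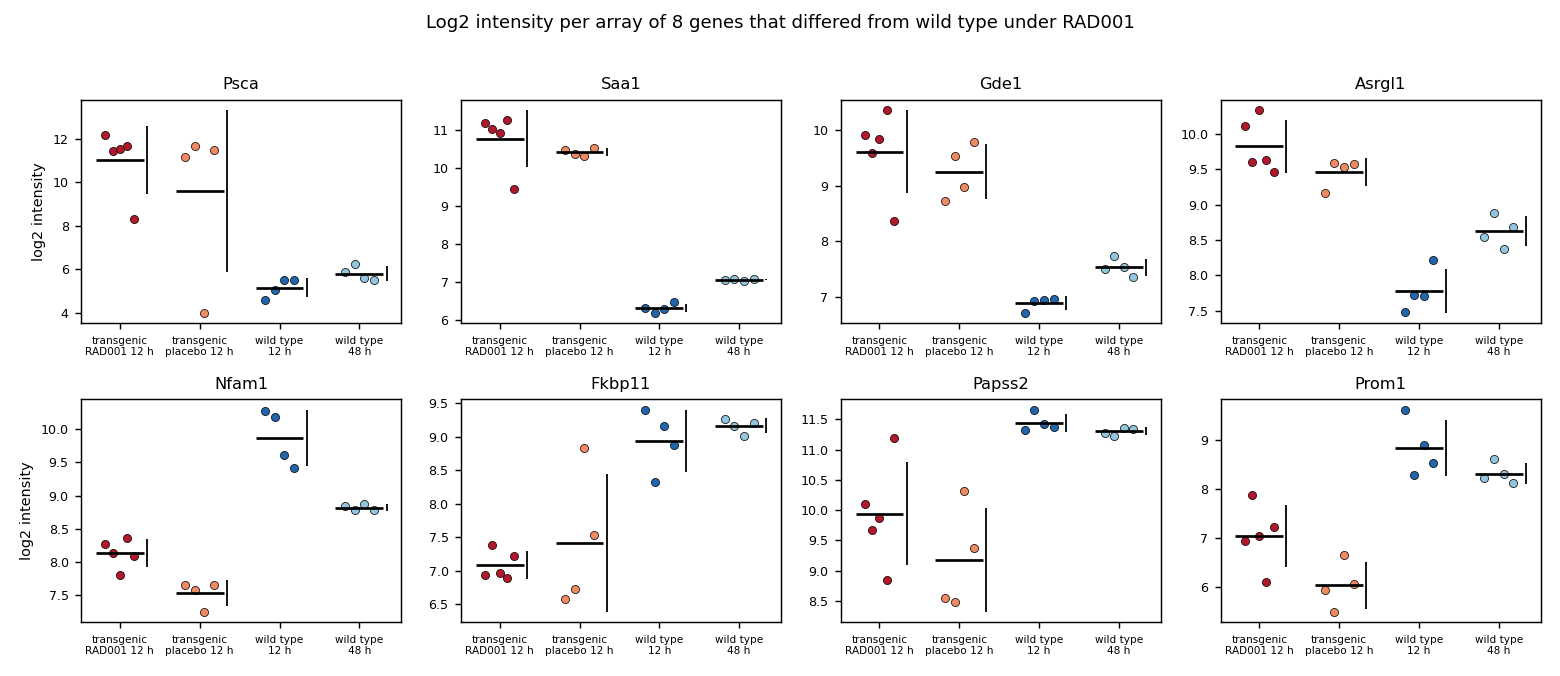
Log2 intensity (values under 16 set to 16) of 8 genes on each array of transgenic RAD001 12 h (5 arrays), transgenic placebo 12 h, wild type 12 h and wild type 48 h (4 arrays each). Points are arrays, horizontal lines are means and vertical lines are 1 SD. Psca, Saa1, Gde1 and Asrgl1 lie higher in RAD001 arrays than in both wild type groups, and Nfam1, Fkbp11, Papss2 and Prom1 lie lower.

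Of the 15 largest falls, that of Nfam1 had the smallest error. Nfam1, a receptor with an immune activation motif, had 308, 282, 223, 329 and 272 in RAD001 arrays, 202, 191, 152 and 201 in transgenic placebo arrays and 1243, 1161, 779 and 684 in wild type arrays, and fell by 1.74 ± 0.18 (adjusted p = 3.91e-08). Its wild type arrays of 48 h were lower (457, 442, 471 and 438), and the difference against them was -0.69 ± 0.18 (adjusted p = 0.00597). Fkbp11, a prolyl isomerase of the endoplasmic reticulum in secretory cells, had 123, 167, 126, 119 and 149.6 in RAD001 arrays and 679, 319, 572 and 469 in wild type arrays (log2 -1.86 ± 0.28, adjusted p = 1.5e-05). The groups did not overlap, and against wild type at 48 h the difference was -2.08 ± 0.28. Of the 3 probe sets for Fkbp11 1 was called, and the others ranged up to 0.26.

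Papss2, which makes the sulphate donor for sulphation, had 1097, 817, 938, 458 and 2350.3 in RAD001 arrays, 372, 356, 1274 and 663 in transgenic placebo arrays and 2566, 3237, 2755 and 2652 in wild type arrays (log2 -1.51 ± 0.34). RAD001 replicate 5 came closest to the wild type range without entering it, and the other 4 arrays lay at 1097 or less. Prom1, a membrane protein of epithelial protrusions, had 122, 235, 133, 68.7 and 149.8 in RAD001 arrays and 781, 313, 473 and 368 in wild type arrays (log2 -1.79 ± 0.33). Its transgenic placebo arrays were mostly lower still (61.2, 45, 101.1 and 66.9), and the step from those to RAD001 was 1.0 ± 0.33 (adjusted p = 0.127). The water channel gene Aqp5 fell by 1.94 ± 0.52, and by more against wild type at 48 h (-2.68 ± 0.52). Wars, the tryptophanyl-tRNA synthetase, fell by 1.49 ± 0.31 with 3 of its 4 probe sets called. All of Fkbp11, Papss2, Prom1, Aqp5 and Wars were called against both wild type groups.

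Several other falls were seen against wild type at 12 h and not against wild type at 48 h. Pnliprp1, a pancreatic lipase-related gene, had 88.7, 255, 137, 28.6 and 42.6 in RAD001 arrays and 1336, 512, 519 and 488 in wild type arrays of 12 h, where wild type arrays of 48 h had 44.5, 68.7, 62 and 119.7. Its difference was -2.97 ± 0.72 against 12 h and 0.25 ± 0.72 against 48 h. Rnase1, a secreted ribonuclease, showed the same layout, with -1.94 ± 0.56 at 12 h and -0.19 against 48 h, and lost its call without RAD001 replicate 4 (adjusted p = 0.0501). The zinc transporter gene Slc30a2 had -1.66 ± 0.46 and 0.35, and lost its call without wild type replicate 1 (adjusted p = 0.0696). Stat5a, a transcription factor downstream of prolactin, had 329.6, 423, 278, 278 and 346 in RAD001 arrays and 1063, 848, 861 and 734 in wild type arrays of 12 h, with no overlap (log2 -1.41 ± 0.21). From wild type at 48 h (359.7, 494, 429.9 and 463) its difference was -0.41 ± 0.21 (adjusted p = 0.157). The proline dehydrogenase gene Prodh (-1.44 and -0.48), the prostaglandin dehydrogenase gene Hpgd (-1.76 and -0.90) and the ion channel gene Hcn3 (-2.05 and -1.20) also passed the test against wild type at 12 h and missed it against 48 h. The falls of Th and Cdca7l rested on single arrays. Th, tyrosine hydroxylase, fell by 1.97 ± 0.64, but RAD001 arrays ran from 18.5 to 293 against 202 to 422 in wild type arrays, and the call was lost without RAD001 replicate 1 or 4 or wild type replicate 1, 3 or 4 (adjusted p up to 0.113). Unlike the genes above, Th was also called against wild type at 48 h (-1.95, adjusted p = 0.0254). Cdca7l, a cell division cycle-associated gene, was listed at 0 on RAD001 replicate 3, and its call was lost without that array (adjusted p = 0.193) or without any 1 wild type array, and against wild type at 48 h (-1.05).

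**Figure D2:**
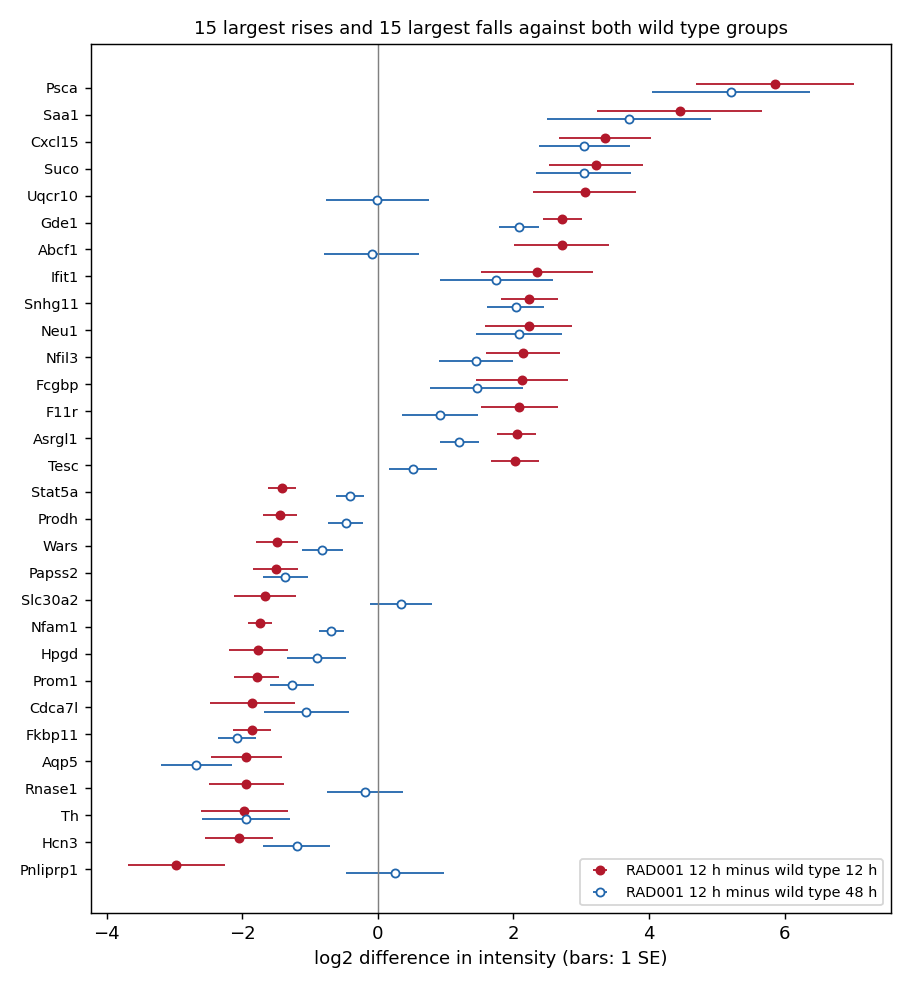
Log2 difference of RAD001 12 h arrays from wild type 12 h arrays (filled red points) and from wild type 48 h arrays (open blue points) for the 15 largest rises and 15 largest falls, with bars of 1 SE. Psca, Saa1, Cxcl15, Suco and Gde1 keep their place under both references, while Uqcr10, Abcf1, Rnase1 and Pnliprp1 move to near 0 against the 48 h arrays.

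The plot of both references shows which of the leading genes depended on that choice. Over all features 2227 were called against wild type at 48 h (23.1%), 1046 of them higher (10.9%) and 1181 lower (12.3%), and 1939 against the mean of both wild type groups.

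Glycolysis genes lay between transgenic placebo and wild type under the drug. Of 13 glycolysis genes tested 5 rose and 0 fell against wild type (38.5%, where 8.7% of all features rose), with a median difference of 0.57 against -0.02 over all features. In transgenic placebo arrays 7 rose (53.8%, where 9.62% of all features rose), with a median of 1.22. RAD001 against transgenic placebo lowered 5 (38.5%, where 0.831% of all features fell), with a median of -0.61. The mean log2 intensity of the 13 genes was 9.62, 9.58, 9.65, 9.98 and 9.23 in the RAD001 arrays, 10.07, 10.28, 10.07 and 10.15 in transgenic placebo arrays and 8.98, 9.11, 9.04 and 9.22 in wild type arrays. Every RAD001 array was thus below every transgenic placebo array, and 4 of the 5 were above every wild type array, with replicate 5 level with the highest. Without RAD001 replicate 5 the count stayed at 5 and the median became 0.72.

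Pfkl, the liver-type phosphofructokinase subunit, had 545, 614, 557, 713 and 363 in RAD001 arrays, 969.8, 1238, 1105 and 1237 in transgenic placebo arrays and 245, 275, 279 and 353 in wild type arrays. It was 0.93 ± 0.19 above wild type (adjusted p = 0.000563), against 1.99 ± 0.20 for transgenic placebo, and -1.05 ± 0.19 from transgenic placebo to RAD001 (adjusted p = 0.00285). The 3 groups did not overlap. Pgk1, phosphoglycerate kinase, had 2827, 3442, 3546, 4869 and 2159.6 in RAD001 arrays and 2049, 1334, 1687 and 1729 in wild type arrays (log2 0.95 ± 0.15, adjusted p = 3.38e-05), with all 3 probe sets called. Tpi1, triosephosphate isomerase, rose by 0.64 ± 0.15 and Aldoa, aldolase A, by 0.57 ± 0.14, where transgenic placebo arrays stood 1.45 and 1.22 above wild type. For both genes RAD001 replicate 5 lay within the wild type range. Aldoc, aldolase C, rose by 0.73 ± 0.16. Against wild type at 48 h Pgk1, Tpi1 and Aldoa were called (0.59, 0.44 and 0.54), and Pfkl and Aldoc were not (adjusted p = 0.0513 and 0.0809).

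Of the 13 genes 5 rose and 1 fell against wild type at 48 h (46.2%, where 23.1% of all features were called). The gene that fell was the hexokinase gene Hk2 (-0.48, adjusted p = 0.035). From wild type at 12 h Hk2 differed by 0.066 ± 0.17 (95% interval -0.28 to 0.41), where transgenic placebo arrays stood 0.75 above wild type (adjusted p = 0.00237). Hk1, the other hexokinase, differed by 0.29 ± 0.13 (95% interval 0.026 to 0.55). The glucose transporter gene Slc2a1 had 293, 251, 315, 312 and 267 in RAD001 arrays and 322, 355, 289 and 348 in wild type arrays (log2 -0.19 ± 0.47), with a wide interval of -1.15 to 0.76. Without 2 transgenic placebo arrays of 15 d that share the fit and hold many zeros, 6 glycolysis genes rose.

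Among targets of hypoxia-inducible factor outside glycolysis, 5 of 17 tested rose and 0 fell (29.4%, where 8.7% of all features rose), with a median of 0.33. Against wild type at 48 h 4 rose and 1 fell (29.4%, where 23.1% of all features were called), with a median of 0.12. Transgenic placebo arrays had 7 higher (41.2%, where 9.62% of all features were) and a median of 0.80. RAD001 against transgenic placebo lowered 1 (5.88%, where 0.831% of all features fell). Bnip3, a mitophagy receptor, had 839, 753, 906, 1484 and 544 in RAD001 arrays, 1188, 1948, 1452 and 1440.3 in transgenic placebo arrays and 312, 375, 360.4 and 310.1 in wild type arrays. It was 1.34 ± 0.18 above wild type (adjusted p = 3.57e-06), against 2.13 for transgenic placebo, with a drug step of -0.79 ± 0.18 (adjusted p = 0.0196). Fam162a, a mitochondrial protein gene, rose by 0.87 ± 0.16 and Plod2, a collagen lysyl hydroxylase, by 0.75 ± 0.13. Neither was called against wild type at 48 h (0.31 and 0.12). Pdk1, the kinase that shuts pyruvate dehydrogenase, rose by 0.84 ± 0.23, and Ero1a, an oxidase of the endoplasmic reticulum, by 1.03 ± 0.30. Their calls were lost without wild type replicate 4 (Pdk1, adjusted p = 0.0848) and without wild type replicate 1 or RAD001 replicate 1 or 3 (Ero1a, up to 0.0549). Vegfa, the vascular growth factor gene, differed by -0.011 ± 0.13 (95% interval -0.28 to 0.26).

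**Figure D3:**
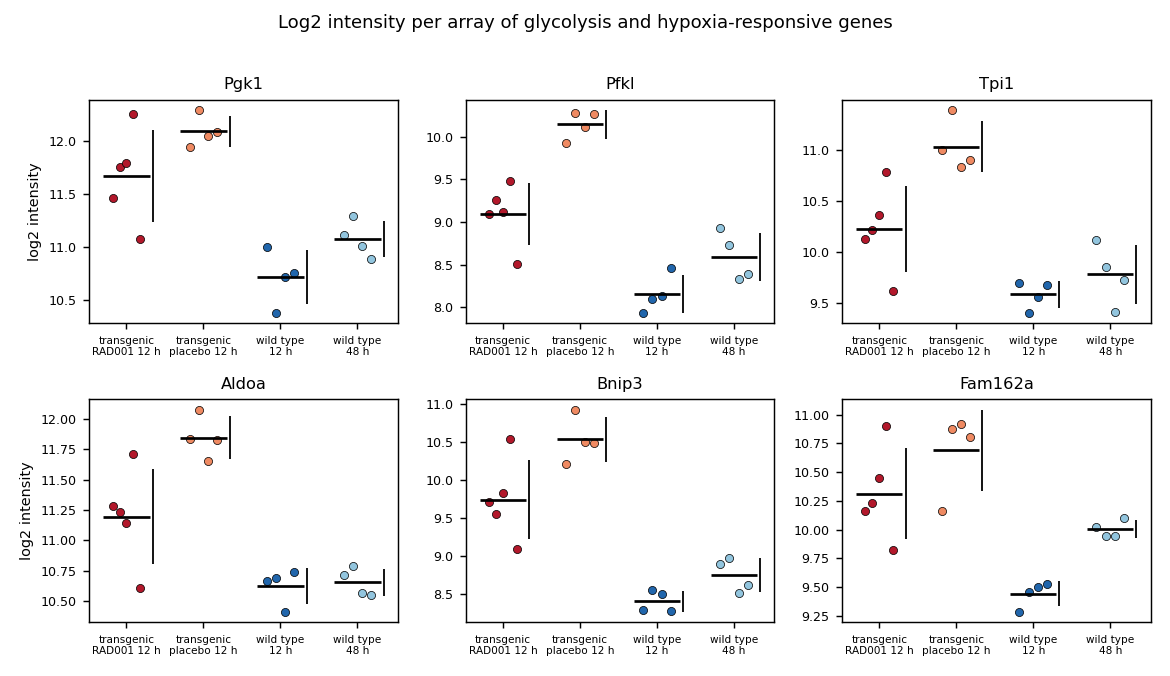
Log2 intensity of the glycolysis genes Pgk1, Pfkl, Tpi1 and Aldoa and of the hypoxia-responsive genes Bnip3 and Fam162a on each array of transgenic RAD001 12 h (5 arrays), transgenic placebo 12 h, wild type 12 h and wild type 48 h (4 arrays each). Points are arrays, horizontal lines are means and vertical lines are 1 SD. RAD001 means lie between those of transgenic placebo and wild type in all 6 genes.

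A core form of the hypoxia response element reads ACGTG. Only this form was searched, on both strands, in the 250 bases before the annotated start (RefSeq, GRCm38.p6, first entry per gene). It was found in 7 of 13 glycolysis genes and 9 of 15 hypoxia genes with a promoter in that table, and in 16.6% of all 27025 genes there. Of the glycolysis genes called higher, Pfkl, Tpi1, Aldoa and Aldoc hold no match in this window, and Pgk1 does. Slc2a1 and Hk2 hold matches and were not called, and the called hypoxia gene Pdk1 holds none. The window says nothing of other positions, and a link between match and call was not tested. The promoters of 3 genes that stayed above wild type are shown with the matches in capitals, where CACGT is a match read on the other strand. Bnip3 (chr7:138909507-138909756, minus strand) holds 1 palindrome in which both strands match, Fam162a (chr16:36071562-36071811, minus strand) holds 1 match and Pgk1 (chrX:106186850-106187099, plus strand) holds 2.
Bnip3: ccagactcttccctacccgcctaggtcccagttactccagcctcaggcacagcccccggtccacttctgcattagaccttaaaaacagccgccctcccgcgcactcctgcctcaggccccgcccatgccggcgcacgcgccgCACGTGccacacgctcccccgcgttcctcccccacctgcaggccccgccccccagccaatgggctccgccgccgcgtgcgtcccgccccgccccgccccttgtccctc
Fam162a: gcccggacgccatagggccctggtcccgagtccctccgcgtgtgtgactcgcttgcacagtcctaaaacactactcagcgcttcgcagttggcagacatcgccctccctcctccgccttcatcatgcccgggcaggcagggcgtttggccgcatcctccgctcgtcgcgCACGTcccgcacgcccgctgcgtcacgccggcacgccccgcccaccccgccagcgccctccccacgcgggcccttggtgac
Pgk1: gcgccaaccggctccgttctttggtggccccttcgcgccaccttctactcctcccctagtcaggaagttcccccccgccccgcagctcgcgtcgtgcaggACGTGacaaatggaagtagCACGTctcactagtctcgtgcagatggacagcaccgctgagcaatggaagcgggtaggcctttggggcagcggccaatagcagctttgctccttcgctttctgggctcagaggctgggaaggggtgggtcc
These letters describe the sequence and are not shown to be bound.

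Many lysosome and autophagy genes were higher than in wild type, in RAD001 and in transgenic placebo arrays. Of 20 tested 11 rose and 0 fell (55%, where 8.7% of all features rose), with a median of 0.43, and the count stayed at 11 or 12 when any single array was left out. Transgenic placebo arrays had 12 higher and 1 lower (65%, where 20.6% of all features were called), with a median of 0.48. RAD001 against transgenic placebo gave 1 call (5%, where 1.48% of all features were called) and a median of 0.03. With the 48 h arrays as wild type 10 rose and 0 fell (50%, where 10.9% of all features rose). Lamp2, a structural protein of the lysosome membrane, had 1682, 1598, 1508, 1544 and 1422 in RAD001 arrays, 1285, 1432, 1302 and 1424 in transgenic placebo arrays and 824, 1109, 989 and 1002 in wild type arrays (log2 0.67 ± 0.093, adjusted p = 4.45e-06). All 5 RAD001 arrays lay above all 4 wild type arrays, while the 4 probe sets for the gene ranged from -0.32 to 0.92. Its companion Lamp1 rose by 0.38 ± 0.067 (adjusted p = 0.00011).

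Among lysosomal proteases, Ctsl had 2456, 2361, 2278, 2498 and 1658 in RAD001 arrays and 875, 1338, 1199 and 1428 in wild type arrays (log2 0.90 ± 0.15, adjusted p = 6.78e-05). Ctsd rose by 0.70 ± 0.15, with RAD001 replicate 5 at 1946 inside the wild type range and the other 4 arrays at 3345 or more. Ctsb rose by 0.56 ± 0.12, although 1 of its 3 probe sets was at -0.22. Of the glycosidases, Gusb, which removes glucuronic acid, rose by 1.40 ± 0.27 and Hexa, a hexosaminidase subunit, by 0.68 ± 0.17. Gabarapl1, an autophagosome membrane protein gene, had 1693, 1571, 1620.4, 1350.5 and 1281 in RAD001 arrays, 1055, 1248, 956 and 1341 in transgenic placebo arrays and 897, 1043, 892 and 1004 in wild type arrays (log2 0.64 ± 0.13). In transgenic placebo arrays Gabarapl1 differed from wild type by 0.25 ± 0.13 (adjusted p = 0.19), and RAD001 against transgenic placebo gave 0.39 ± 0.13 (adjusted p = 0.121). Ctsz, another cathepsin gene, was 0.62 ± 0.14 above wild type at 12 h and 0.11 above wild type at 48 h, where it was not called.

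The E-box CACGTG, the core of the element read by lysosome gene regulators, was found in 7 of 18 lysosome promoters and in 6.05% of all promoters of the same length. Among lysosome genes called higher, Lamp1 holds 4 and Ctsl 1, while Lamp2, Gusb, Hexa, Ctsz and Gabarapl1 hold 0 in this window. A link between match and call was not tested. The promoter of Ctsd (chr7:142387828-142388077, minus strand, GRCm38.p6, RefSeq) is shown as an example that holds 2 of them, in capitals. Each CACGTG also holds the hypoxia core ACGTG on both strands.
Ctsd: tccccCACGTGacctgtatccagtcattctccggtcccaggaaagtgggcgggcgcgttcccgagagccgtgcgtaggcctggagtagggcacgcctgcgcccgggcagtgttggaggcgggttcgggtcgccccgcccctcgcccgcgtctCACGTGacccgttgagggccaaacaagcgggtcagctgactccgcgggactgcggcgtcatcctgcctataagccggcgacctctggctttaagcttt

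Sterol genes differed from wild type under the drug in 1 case. Of 17 cholesterol synthesis genes 1 rose and 0 fell against wild type (5.88%, where 8.7% of all features rose), with a median of 0.08. Transgenic placebo arrays had 5 higher (29.4%, where 9.62% of all features were), with a median of 0.55. Without the 2 transgenic placebo arrays of 15 d with many zeros, 4 rose between RAD001 and wild type. Fdft1, squalene synthase, had 169, 179, 210.1, 293 and 178 in RAD001 arrays, 278, 395, 251 and 315 in transgenic placebo arrays and 87.4, 74.9, 108 and 90.7 in wild type arrays (log2 1.17 ± 0.21, adjusted p = 0.000191). Its difference from wild type at 48 h was 0.55 ± 0.21 (adjusted p = 0.0605). Fdps, the preceding enzyme, had 221, 204, 206, 313 and 182 in RAD001 arrays and 433, 523, 343 and 485 in transgenic placebo arrays (log2 -1.0 ± 0.20, adjusted p = 0.0084) and 179, 159.6, 222 and 189 in wild type arrays, a difference from wild type of 0.25 ± 0.20 (95% interval -0.17 to 0.66).

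In fatty acid synthesis 1 of 11 genes rose and 2 fell (27.3%, where 17% of all features were called). Srebf1, the transcription factor of lipid synthesis, had 407, 383, 347, 416 and 416 in RAD001 arrays, 506, 520.0, 537 and 476 in transgenic placebo arrays and 606, 901, 896 and 649 in wild type arrays (log2 -0.93 ± 0.14, adjusted p = 1.1e-05). The RAD001 and wild type arrays did not overlap, and the difference against wild type at 48 h was -0.62 ± 0.14. The desaturase genes moved oppositely: Scd2 was at 0.48 ± 0.12 and Scd1 at -0.68 ± 0.20, and Scd1 lost its call without wild type replicate 2 (adjusted p = 0.0793). Of the 3 probe sets of Scd2 1 was called, and of the 2 of Scd1 1 was called, with the other at -0.0088.

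Among cell type markers, luminal epithelial genes that were called were all higher than in wild type, and smooth muscle genes that were called were all lower. Of 18 luminal markers 5 rose and 0 fell (27.8%, where 8.7% of all features rose), with a median of 0.56, and 9 rose without RAD001 replicate 5 or without the 2 zero-rich arrays of 15 d. Transgenic placebo arrays had 10 higher and 0 lower than wild type (55.6%, where 9.62% of all features were higher), with a median of 0.63. Against wild type at 48 h 5 rose and 0 fell under RAD001 (27.8%, where 10.9% of all features rose). Cdh1, the epithelial cadherin, had 1866, 2045, 1908, 2294 and 1303 in RAD001 arrays, 2067, 2276, 1376 and 1728 in transgenic placebo arrays and 957, 1064, 902 and 795 in wild type arrays (log2 1.0 ± 0.14, adjusted p = 6.83e-06). Tspan1, a tetraspanin, rose by 0.96 ± 0.13, and the protease inhibitor genes Spint1 and Spint2 by 0.76 ± 0.12 and 0.62 ± 0.12. Ocln, a tight junction protein gene, rose by 0.60 ± 0.13. The keratin gene Krt8 had 2579.8, 2528, 2554, 3058 and 1891 in RAD001 arrays, 4737, 4377, 2825 and 3899 in transgenic placebo arrays and 1807, 1888, 1724 and 2013 in wild type arrays. It differed from wild type by 0.43 ± 0.15 (adjusted p = 0.0516) and from transgenic placebo by -0.64 ± 0.15 (adjusted p = 0.0242). The summed intensity of the 18 luminal markers ran from 31064 to 40780.2 in RAD001 arrays, 38651 to 43460.4 in transgenic placebo arrays and 26640.3 to 29715 in wild type arrays.

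Of 11 androgen-regulated prostate genes 3 rose (27.3%, where 8.7% of all features rose) and 0 fell. Against wild type at 48 h 2 rose (18.2%, where 10.9% of all features rose). Tmprss2, an androgen-driven surface protease, had 2501, 2488, 2674, 4038 and 1341 in RAD001 arrays and 967, 756, 744 and 803 in wild type arrays (log2 1.60 ± 0.23, adjusted p = 5.57e-06). Pigr, which carries antibodies across epithelium, had 5628, 5642, 6059, 6425 and 4871 in RAD001 arrays, 6105, 6128, 5605 and 5865 in transgenic placebo arrays and 2495, 3238, 2599 and 3318 in wild type arrays (log2 0.98 ± 0.11, adjusted p = 1.02e-07). The third was Spink1 at 0.13 ± 0.042, which was not called against wild type at 48 h (0.087). Its call was also lost without RAD001 replicate 2 or 4 or wild type replicate 1, 2 or 4 (adjusted p up to 0.0677), or with quantile normalisation (0.441) or median scaling (0.294). Pbsn, probasin, a secreted androgen-dependent protein, had 5720.1, 6532, 5576, 1559.8 and 4013 in RAD001 arrays and 5771, 6714, 6460.0 and 5158 in wild type arrays, a difference of -0.51 ± 0.26 (95% interval -1.03 to 0.006).

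Of 14 smooth muscle markers 6 fell and 0 rose (42.9%, where 8.31% of all features fell), with a median of -0.59. Transgenic placebo arrays had 8 lower (57.1%, where 11% of all features were), with a median of -1.04. RAD001 against transgenic placebo raised 1 (7.14%, where 0.644% of all features rose), with a median of 0.43. The mean log2 intensity of the list was 9.14, 9.20, 9.11, 9.10 and 9.65 in RAD001 arrays, 8.56, 8.64, 8.96 and 9.01 in transgenic placebo arrays and 9.56, 9.79, 9.68 and 9.93 in wild type arrays. RAD001 replicates 1 to 4 lay below all wild type arrays and above all transgenic placebo arrays, and RAD001 replicate 5 lay within the wild type range. Cald1, an actin-binding regulator of contraction, had 381, 429, 427, 377 and 497 in RAD001 arrays and 660.4, 684, 648 and 657 in wild type arrays (log2 -0.66 ± 0.14, adjusted p = 0.00144). The myosin light chain kinase gene Mylk fell by 0.76 ± 0.21, the tropomyosin gene Tpm2 by 0.60 ± 0.18, the filamin gene Flna by 0.67 ± 0.20, and the actin genes Actg2 and Acta2 by 0.89 ± 0.27 and 0.42 ± 0.13. Tagln, transgelin, had 1778, 1859, 1691, 1872 and 2579 in RAD001 arrays, 946, 1183, 1499.7 and 1404 in transgenic placebo arrays and 2441, 2501, 2502 and 2773 in wild type arrays. RAD001 differed from wild type by -0.40 ± 0.15 (adjusted p = 0.0646) and from transgenic placebo by 0.64 ± 0.15 (adjusted p = 0.0218). Acta2, Actg2, Flna and Tpm2 lost their calls without single arrays (adjusted p up to 0.0973, 0.0542, 0.0808 and 0.0549). Against wild type at 48 h 2 of the 14 were called lower (14.3%, where 12.3% of all features were), and Mylk, Tpm2, Actg2 and Acta2 were not among them. The count against 12 h ran from 3 to 8 with single arrays left out, lowest without wild type replicate 4.

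**Figure D4:**
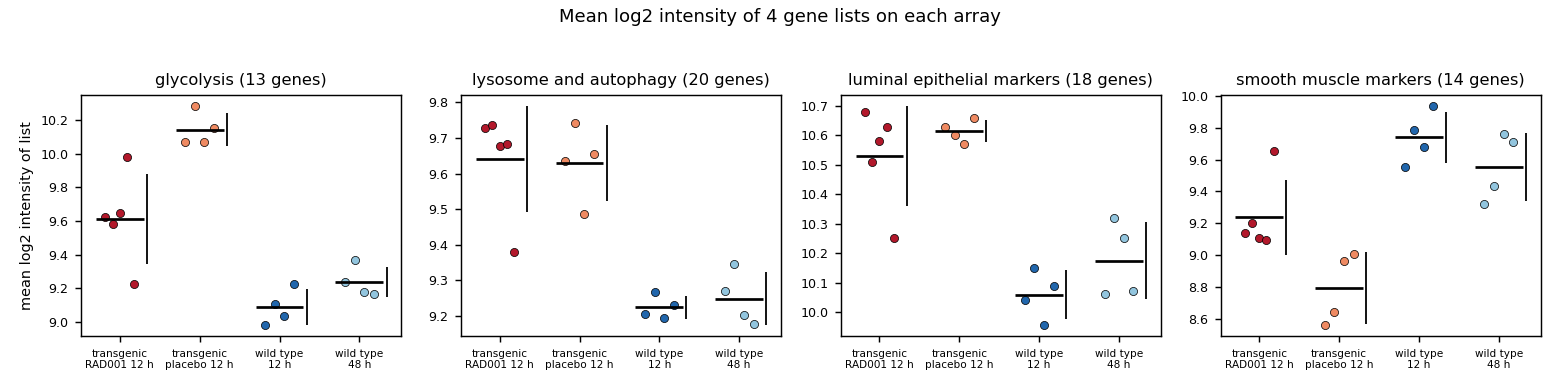
Mean log2 intensity of the tested members of 4 gene lists on each array of transgenic RAD001 12 h (5 arrays), transgenic placebo 12 h, wild type 12 h and wild type 48 h (4 arrays each). Points are arrays, horizontal lines are means and vertical lines are 1 SD. RAD001 replicate 5, the last red point in each panel, lies nearest to wild type in all 4 lists.

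Markers of other cells of the gland were less regular. Their shares called stand beside 17% over all features against wild type at 12 h and 23.1% against wild type at 48 h. Of 17 fibroblast and matrix markers 1 rose and 0 fell (5.88%). The gene that rose was the metalloproteinase inhibitor gene Timp2 (3657, 3349.9, 3358, 4052 and 1782 in RAD001 arrays and 1069.6, 1563, 1151 and 1492 in wild type arrays, log2 1.26 ± 0.21), for which 2 of 5 probe sets were called. Of the 17 markers 3 rose and 4 fell against wild type at 48 h (41.2%), with a median of -0.65 against -0.29 from 12 h. Without wild type replicate 1 there were 3 that fell against 12 h. Of 8 basal markers 1 rose and 1 fell (25%). The integrin gene Itga6 fell by 0.66 ± 0.15, and the plakin gene Dst gave 0.95 ± 0.23 on its brightest probe set. The 3 probe sets of Dst were all called but disagreed in direction (-1.60 to 1.42). Of the 8 markers 0 rose and 3 fell against wild type at 48 h (37.5%), and Dst was at 0.61 (adjusted p = 0.0548). Trp63 and Krt5, which define basal cells, differed by -0.31 ± 0.13 and -0.32 ± 0.16 without a call. Of 11 macrophage markers 1 fell (9.09%), and of 3 endothelial markers 1 rose (33.3%). Of 6 lymphocyte, 4 adipocyte and 2 erythrocyte markers 0 were called in limma (0 at an unadjusted p under 0.05 as well). Of 8 nerve and glia markers 1 rose (Mbp, a myelin protein gene, 0.78 ± 0.14, with 1 of 4 probe sets called) and 2 fell (37.5% called). Their summed intensity ran from 1357 to 1507 in RAD001 arrays, 1521 to 1957 in wild type arrays of 12 h and 1399 to 1490.3 in wild type arrays of 48 h. The median difference of the list was -0.34 against 12 h and 0.13 against 48 h. The part of cell composition in the other results was not tested.

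Some genes of amino acid supply fell. Of 17 serine synthesis and ATF4 target genes 5 fell and 0 rose (29.4%, where 8.31% of all features fell), and against wild type at 48 h 7 fell (41.2%, where 12.3% of all features fell). Slc7a5, the large neutral amino acid transporter, had 62.9, 109, 68.7, 50.9 and 67.2 in RAD001 arrays, 39.7, 42.4, 84.9 and 59 in transgenic placebo arrays and 169, 133, 223 and 159.8 in wild type arrays (log2 -1.28 ± 0.33, adjusted p = 0.00638). Its partner subunit Slc3a2 fell by 0.43 ± 0.10, Phgdh, the first enzyme of serine synthesis, by 0.42 ± 0.12, and the folate enzyme gene Mthfd2 by 0.69 ± 0.19. Mthfd2 was not called against wild type at 48 h (-0.49). Of the 4 probe sets of Phgdh 2 were called lower and another was at 0.90 without a call. For Phgdh transgenic placebo arrays differed from wild type by -0.13 ± 0.12 (adjusted p = 0.514). The median of the list was -0.06. In the endoplasmic reticulum list 1 of 20 rose and 3 fell (20%, where 17% of all features were called). Against wild type at 48 h 1 rose and 8 fell (45%, where 23.1% were called). From wild type at 12 h Pdia6, a disulphide isomerase, was at -0.68 ± 0.15 and the chaperone gene Hyou1 at -0.64 ± 0.15.

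In the citric acid cycle 3 of 19 genes fell and 0 rose (15.8%, where 8.31% of all features fell and 17% were called). Suclg1, a succinyl-CoA ligase subunit, had 635, 593, 541, 642 and 671 in RAD001 arrays and 836, 1178, 917 and 1112 in wild type arrays (log2 -0.70 ± 0.12, adjusted p = 0.000111). Fh1, fumarate hydratase, fell by 0.62 ± 0.13 and Idh3g, an isocitrate dehydrogenase subunit, by 0.36 ± 0.075. All 3 were called against wild type at 48 h. Of 24 oxidative phosphorylation genes 1 rose and 2 fell (12.5% called), among them Sdhb, the iron-sulphur subunit of succinate dehydrogenase (-0.34 ± 0.082).

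The share called in lists of the translation machinery was near that over all features (17%). Of 15 cytosolic ribosomal protein genes 2 fell (13.3%), of 17 translation factors 1 rose and 1 fell (11.8%), and of 22 ribosome biogenesis genes 3 fell and 0 rose (13.6%). Of the last list 7 fell against wild type at 48 h (31.8%, where 12.3% of all features fell). Rpl10a, a large subunit protein gene, fell by 0.24 ± 0.063, and Eif4a1, the helicase of the cap-binding complex, had 1077, 1151, 1019.6, 1455 and 1106 in RAD001 arrays and 1721, 1698, 1524 and 1504 in wild type arrays (log2 -0.48 ± 0.099, adjusted p = 0.000731). For Eif4a1 transgenic placebo arrays differed from wild type by -0.17 ± 0.10 (adjusted p = 0.291), and 1 of its 3 probe sets was called.

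Of 22 pathway genes around AKT and mTOR 2 rose and 2 fell (18.2%, where 17% of all features were called), with a median of -0.02, and Rps6kb1, the S6 kinase gene, was not analysed here. Akt1 had 768, 722, 816, 845 and 745 in RAD001 arrays, 836, 781, 795 and 926 in transgenic placebo arrays and 615, 665, 424 and 671 in wild type arrays (log2 0.41 ± 0.13, adjusted p = 0.0272). That call was lost without RAD001 replicate 3 or 4 or wild type replicate 3 (adjusted p up to 0.185) and against wild type at 48 h (0.12 ± 0.13), and a second probe set was called at 1.72. The labels do not say whether these mouse probe sets read the transgene. Irs1, the adaptor between insulin receptors and phosphoinositide 3-kinase, had 151, 136, 133, 119 and 206 in RAD001 arrays, 77.4, 78.4, 206 and 95.4 in transgenic placebo arrays and 427, 319, 258 and 252 in wild type arrays (log2 -1.07 ± 0.22, adjusted p = 0.000671), and -1.51 ± 0.22 against wild type at 48 h. Gsk3b, a kinase that AKT inhibits, rose by 0.86 ± 0.18 against 12 h and differed by 0.26 against 48 h without a call. Mtor had 267, 255, 243, 200 and 281 in RAD001 arrays and 246, 286, 263 and 254 in wild type arrays (-0.081 ± 0.44, 95% interval -0.97 to 0.81), and Eif4ebp1, the translation repressor that mTOR phosphorylates, differed by 0.054 ± 0.16 (95% interval -0.28 to 0.39) on its brightest probe set, while its other probe set was called at -0.51.

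Cell cycle genes gave 1 rise and 1 fall among 14 (14.3%, where 17% of all features were called). Ccnd1, cyclin D1, had 248, 268, 264, 217 and 299 in RAD001 arrays, 163, 243, 225 and 199 in transgenic placebo arrays and 466, 424, 546 and 465 in wild type arrays (log2 -0.88 ± 0.13, adjusted p = 1.17e-05), and -0.74 ± 0.13 against wild type at 48 h. Pcna, the replication clamp, had 236, 213, 216, 229 and 261 in RAD001 arrays, 441, 432, 329 and 358 in transgenic placebo arrays and 259, 233, 297 and 279 in wild type arrays, and differed from transgenic placebo by -0.75 ± 0.12 (adjusted p = 0.0011) and from wild type by -0.21 ± 0.12 (adjusted p = 0.261). Among 17 immediate early and stress factors 4 rose and 0 fell (23.5%, where 8.7% of all features rose). Btg2, an antiproliferative gene, rose by 1.52 ± 0.24, Jund, a subunit of AP-1, by 0.56 ± 0.12, Atf3, a stress-induced repressor, by 1.19 ± 0.32, and the zinc finger factor gene Klf6 by 0.91 ± 0.19. Btg2, Jund and Atf3 were called against wild type at 48 h too (1.12, 0.68 and 0.92), and Klf6 was not (0.27).

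Proteasome genes depended on the wild type group: 5 of 22 rose and 1 fell against 12 h (27.3% called), while 0 rose and 2 fell against 48 h (9.09%). Over all features 17% were called against 12 h and 23.1% against 48 h. The regulatory ATPase genes Psmc1, Psmc5 and Psmc4 rose by 0.89 ± 0.15, 0.68 ± 0.10 and 0.54 ± 0.10 against 12 h, and against 48 h the differences were 0.19, 0.27 and -0.20, with 0 of the 3 called. Of 13 clock genes 1 rose (Nfil3) and 1 fell (15.4% called). The gene that fell was the output factor gene Tef (-0.65 ± 0.16, against -0.067 ± 0.16 from wild type at 48 h). The repressors Nr1d2 and Cry2 lay 0.94 ± 0.19 and 0.68 ± 0.18 above transgenic placebo (adjusted p = 0.00631 and 0.0406) and differed from wild type by -0.29 ± 0.19 and 0.17 ± 0.18. Of 15 FOXO targets 1 rose and 2 fell (20% called). The insulin-like growth factor axis had 1 of 12 higher and 3 lower (33.3%). Of 13 antigen presentation and 11 interferon-induced genes 1 rose and 1 fell in each (15.4% and 18.2%). Among 17 antioxidant and 11 iron-handling genes 0 were called in limma (4 and 2 of them at an unadjusted p under 0.05). The polyamine list had 1 of 9 higher and 2 lower (33.3% called), and the tubulin and actin list 1 of 14 higher and 4 lower (35.7%). Several of these small counts rested on single arrays: without 1 array the number lower ran from 1 to 5 for tubulin and actin (lowest without wild type replicate 3), from 1 to 4 for ribosome biogenesis (wild type replicate 4) and for the insulin-like growth factor axis (wild type replicate 2), and from 0 for FOXO targets and polyamine enzymes (wild type replicate 2) and nerve markers (wild type replicate 1).

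**Figure D5:**
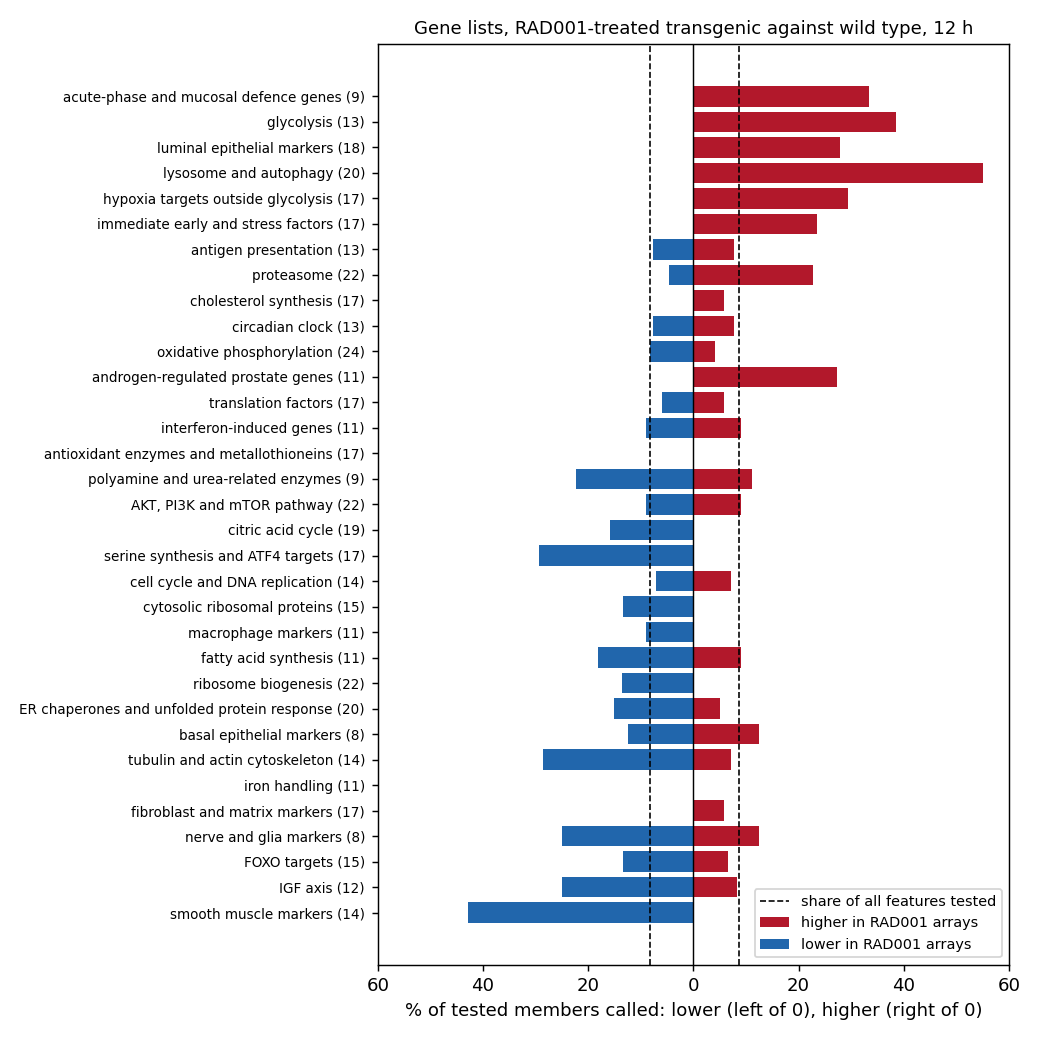
Share of tested members of each gene list called higher (red, right of 0) or lower (blue, left of 0) in RAD001 arrays than in wild type arrays at 12 h, for the lists with 8 or more tested members (number in brackets), ordered by median difference. Dashed lines mark 8.7% higher and 8.31% lower over all features. Lysosome genes have the highest share of rises (55%) and smooth muscle markers the highest share of falls (42.9%).

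A small set of genes stood further from wild type under RAD001 than in transgenic placebo arrays. They were chosen because they were called in the same direction against wild type and against transgenic placebo, so their 2 differences are a description. Tmem159, a lipid droplet protein gene, had 547, 574, 554, 689.8 and 437 in RAD001 arrays, 356, 396, 322 and 429 in transgenic placebo arrays and 314, 387, 319.8 and 314 in wild type arrays (0.74 ± 0.13 from wild type, 0.57 ± 0.13 from transgenic placebo). The RAD001 arrays lay above both other groups without overlap. Paip2b, an inhibitor of the poly(A)-binding protein, had 826, 767, 899.6, 675 and 848 in RAD001 arrays, 554, 545, 580.0 and 602 in transgenic placebo arrays and 668, 664, 647 and 548 in wild type arrays (0.34 ± 0.094 and 0.49 ± 0.094). Fam8a1, a gene of endoplasmic reticulum quality control, was likewise higher (0.33 ± 0.098 and 0.43 ± 0.098).

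Other genes of this kind were lower than both groups. Iars, the isoleucyl-tRNA synthetase, had 162, 173, 169, 106 and 154 in RAD001 arrays, 199, 234, 266 and 231 in transgenic placebo arrays and 264, 165, 232 and 259.7 in wild type arrays (-0.59 ± 0.14 and -0.62 ± 0.14), and its lowest RAD001 array was replicate 4. Cct6a, a subunit of the chaperonin that folds tubulin and actin, had 576, 544, 538, 643 and 507 in RAD001 arrays, 747, 831, 799 and 667 in transgenic placebo arrays and 720.1, 677, 713 and 786 in wild type arrays (-0.37 ± 0.093 and -0.44 ± 0.093). Nop10, a component of the RNA pseudouridylation complex, differed by -0.30 ± 0.086 and -0.44 ± 0.086, and Cse1l, the exporter of importin alpha, by -0.40 ± 0.11 and -0.49 ± 0.11. The tubulin genes Tuba4a and Tubb5 differed by -0.43 ± 0.13 and -0.30 ± 0.096 from wild type and by -0.63 ± 0.13 and -0.42 ± 0.096 from transgenic placebo, and the actin-binding adaptor gene Dbnl by -0.32 ± 0.11 and -0.45 ± 0.11. Some calls against wild type were lost without single arrays. Those of Paip2b and Nop10 were lost without wild type replicate 4 (adjusted p = 0.0573 and 0.0797), and that of Fam8a1 without RAD001 replicate 1 or 3 (up to 0.0664). Tubb5 lost its call without RAD001 replicate 1 or 2 or wild type replicate 3 or 4 (up to 0.121), Tuba4a without RAD001 replicate 2 or wild type replicate 1, 3 or 4 (up to 0.0802), and Dbnl without RAD001 replicate 2, 3 or 4 or wild type replicate 2 or 4 (up to 0.0966). Against wild type at 48 h Tmem159, Iars, Cct6a, Nop10, Cse1l, Tuba4a and Tubb5 were called in the same direction, and Paip2b, Fam8a1 and Dbnl were not called. Of 39 named genes called between RAD001 and transgenic placebo 31 lost that call without some single array, a check added after the data were seen, while Abca1, Nop10, Paip2b, Pcna, Pde4b, Pfkl, Prep and Tubb4b kept it.

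Other genes lay partway, called against both groups with opposite signs, and again chosen for that. Besides Pfkl, Tpi1, Aldoa and Bnip3 these were Man1a, a Golgi mannosidase, with 1088, 1531, 1222, 538 and 1319 in RAD001 arrays, 361, 305, 812 and 586 in transgenic placebo arrays and 2377, 1727, 1835 and 1711 in wild type arrays, and Nudt4, a polyphosphate hydrolase, with 433, 503, 428, 377 and 426 in RAD001 arrays, 234, 263, 314 and 348 in transgenic placebo arrays and 657, 694, 687 and 530.1 in wild type arrays. From wild type they differed by -0.82 ± 0.26 and -0.57 ± 0.14, and neither was called against wild type at 48 h. For Nudt4 1 of 2 probe sets was called. Capg, an actin-capping protein gene, had 289, 276, 303, 286 and 217 in RAD001 arrays, 547, 487, 351 and 359 in transgenic placebo arrays and 176, 190.1, 172 and 174 in wild type arrays (0.61 ± 0.16 from wild type, -0.65 ± 0.16 from transgenic placebo). The mitochondrial genes Chchd10, Isca1 and Mrps21 differed from wild type by 0.46 ± 0.14, -0.26 ± 0.088 and 0.30 ± 0.11, and from transgenic placebo by -0.55, 0.42 and -0.44. Capg and Mrps21 were not called against wild type at 48 h (0.28 and 0.12). The call of Man1a against wild type was lost without RAD001 replicate 4 or wild type replicate 1 (adjusted p up to 0.123), and that of Chchd10 without RAD001 replicate 1 or wild type replicate 1 (up to 0.112). Isca1 kept its call only without RAD001 replicate 5 or wild type replicate 1 or 3 (up to 0.107 otherwise), and Mrps21 only without RAD001 replicate 4 or wild type replicate 3 (up to 0.176 otherwise).

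A further set was called between transgenic placebo and wild type and between RAD001 and transgenic placebo, but not between RAD001 and wild type. That a gene missed the threshold does not show that it equalled wild type, so 95% intervals are given, which are not adjusted for the number of genes. Abca1, the cholesterol exporter, had 466, 442, 431, 389 and 341 in RAD001 arrays, 165, 176, 246 and 202 in transgenic placebo arrays and 386, 594, 422 and 483 in wild type arrays, with a difference from wild type of -0.18 ± 0.17 (interval -0.52 to 0.17). Pde4b, a cyclic AMP phosphodiesterase, had 98.2, 115, 96.4, 76.6 and 86.5 in RAD001 arrays, 34.4, 40.7, 59.4 and 39.8 in transgenic placebo arrays and 83.9, 92.6, 92.5 and 80.7 in wild type arrays (0.10 ± 0.22, interval -0.34 to 0.54). Its wild type arrays of 48 h were higher (169.8, 201, 173 and 121), and the difference from those was -0.80 ± 0.22 (adjusted p = 0.0067). Tubb4b, a beta tubulin, had 638, 642, 657, 725 and 831 in RAD001 arrays, 1292, 1567, 1305 and 1232 in transgenic placebo arrays and 771, 478, 766 and 930.4 in wild type arrays (-0.043 ± 0.17, interval -0.39 to 0.30).

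For Fbxo32, a ubiquitin ligase gene that FOXO factors induce, RAD001 arrays had 574, 320.1, 542, 339 and 1069, transgenic placebo arrays 170.2, 168, 278 and 251 and wild type arrays 398, 580.1, 349.9 and 600.1 (0.13 ± 0.30, interval -0.47 to 0.74). The nuclear receptor gene Nr2f1 differed from wild type by -0.057 ± 0.36 (interval -0.78 to 0.66), the Wnt inhibitor gene Wif1 by -0.31 ± 0.30 (interval -0.92 to 0.30), the secreted factor gene Fam3b by 0.25 ± 0.23 (interval -0.22 to 0.71), the peptidase gene Prep by 0.45 ± 0.18 (interval 0.095 to 0.81) and the chemokine receptor gene Ackr3 by -0.88 ± 0.44 (interval -1.78 to 0.011). Nr2f1, Fam3b and Prep were called lower against wild type at 48 h (-0.96, -0.64 and -0.49).

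The difference between RAD001 and wild type was itself compared between 12 h and 48 h. It changed for 217 features (2.25%), with 126 more positive (1.31%) and 91 more negative (0.945%) at 12 h, and the count ran from 99 (without wild type 12 h replicate 1) to 249 with single arrays left out. The 10 with the smallest p were Plod2, the dehydrogenase gene Dhrs1, the adaptor-binding gene Ap1ar, Tfdp1, a partner of E2F factors, Esrp2, an epithelial splicing regulator, Stom, a membrane scaffold gene, Rpe of the pentose phosphate pathway, the transcription factor gene Elf1, the scaffold gene Pdzd11 and Pgm2, a phosphoglucomutase. Their change between times ran from -0.76 for Stom to 1.23 for Pdzd11. For Pdzd11 RAD001 arrays had 134, 153, 146, 102 and 114 and wild type arrays 73.1, 60.3, 74.9 and 59 at 12 h, and at 48 h RAD001 arrays had 164, 138, 106 and 147 and wild type arrays 143, 163, 164 and 198. For Esrp2 RAD001 arrays had 198, 170.2, 200, 172 and 196 and wild type arrays 132, 124, 172 and 115 at 12 h, against 211, 158, 159 and 196 in RAD001 and 286, 345, 248 and 289 in wild type arrays at 48 h. For Stom RAD001 arrays had 297, 323, 272, 307 and 279 and wild type arrays 439.7, 438, 354 and 379 at 12 h, against 317, 307, 301 and 299.7 in RAD001 and 228, 263, 249 and 245 in wild type arrays at 48 h. These 3 genes were picked from those with the smallest p in this comparison, which favours groups that lie apart, so their layout is only a description. In them the wild type arrays of both times did not overlap, and the RAD001 arrays of both times lay closer together. Whether this holds for other features was not tested. The call of Ap1ar at 12 h was lost without wild type replicate 4 (adjusted p = 0.0632), and that of Esrp2 without wild type replicate 2 or 4 (up to 0.0784), where 1 of its 2 probe sets was called. RAD001 at 12 h was not called against wild type at 48 h for Plod2, Dhrs1, Rpe, Elf1, Pdzd11 and Pgm2. For Ap1ar, Tfdp1, Esrp2 and Stom it was called in the opposite direction (-0.52, -0.31, -0.64 and 0.26).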

How the data were processed

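Ventral prostate RNA was read on 1-colour Affymetrix arrays, as biotin-labelled cRNA per the labels' protocols. The authors deposited linear signal intensity per probe set for the 42 arrays of the table used here. The method that condensed probes and the scaling are not given in the sources used here. Intensities below a floor of 16 were raised to it before taking log2, and the arrays were not normalised further. Of 22626 probe sets 2 with values over 1e+05 were left out. Probe sets with a mean log2 under the 40th percentile were dropped, and the brightest probe set per gene was kept. Probe sets numbered 20378 with 1 gene symbol, 691 with several and 1555 with none, and symbols were updated through gene IDs (RefSeq).

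limma 3.58.1 in R 4.3.3 fitted group means over all 42 arrays with a trended moderated variance. Calls are Benjamini-Hochberg adjusted p of 0.05 over 9627 features. The script was tested on simulated data. Genes named are the 15 largest called rises and falls, the leading members of gene lists, and genes chosen by their layout over the 3 groups of 12 h. The genes and lists were chosen with earlier results of these data known. Alternatives covered the filter, floor, scaling, array weights, reference group, fitted arrays and single arrays left out.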

Additional observations from a re-analysis of the deposited data

Results flagged for a closer look

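Single arrays stood far from the rest of their group for some of the named genes. An array counted as far where its gap to the nearest other array, over the range of the group, passed Dixon's 95% critical value. Of 292 groups checked 35 held such an array, 22 among RAD001 and 13 among wild type arrays. By construction that value marks about 1 in 20 groups by chance, and the genes were chosen for their differences. Values here are log2 intensities. RAD001 replicate 5 was the lowest array of its group for Psca (8.29), Saa1 (9.46), Neu1 (8.69), Ctsl (10.7), Ctsd (10.9), Hexa (9.16), Tspan1 (11.9), Ocln (8.19), Timp2 (10.8), Mbp (7.71) and Capg (7.76). It was the highest for Tagln (11.3), Nr2f1 (7.35) and Dhrs1 (8.03). RAD001 replicate 4 was the lowest for Mthfd2 (6.94), Fh1 (7.84), Btg2 (8.99) and Iars (6.73), and the highest for Uqcr10 (10.7), Slc3a2 (9.46) and Cry2 (8.21). RAD001 replicate 3 was the lowest for Cdca7l (4.0, the floor).

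Among wild type arrays of 12 h, replicate 1 was the lowest for Gde1 (6.71), Snhg11 (4.99), Scd2 (11.3) and Chchd10 (9.11), and the highest for Pnliprp1 (10.4), Atf3 (6.71) and Itga6 (8.07). Replicate 2 was the lowest for F11r (4.0, the floor) and the highest for Tmem159 (8.60) and Spint1 (8.89). Replicate 3 was the lowest for Hyou1 (10.4). Replicate 4 was the highest for Tesc (4.82) and the lowest for Paip2b (9.10).

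The difference between RAD001 and wild type changed between times, by the limma test of 12 h minus 48 h, for 19 named genes. It was more positive at 12 h for Asrgl1 (1.48), Pgk1 (0.85), Plod2 (1.10), Lamp2 (0.52), Ctsz (0.82), Psmc4 (0.55), Prep (0.95), Dhrs1 (1.13), Ap1ar (1.20), Tfdp1 (0.88), Esrp2 (1.17), Rpe (1.08), Elf1 (0.97), Pdzd11 (1.23) and Pgm2 (0.99). It was more negative at 12 h for Nfam1 (-1.06), Stat5a (-1.38), Tuba4a (-0.73) and Stom (-0.76). Wild type arrays of 12 h enter all of these, and the part of their standing apart was not tested.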

How the results depend on the processing

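The number of features called between RAD001 and wild type at 12 h (1638) ran from 1232 to 1654 with single arrays left out and reached 2745 with array weights. With median scaling 43.4% of its calls were higher, against 51.2% in the unscaled values. For RAD001 against transgenic placebo (142 calls) the counts were 857 with array weights, 78 with only the compared groups fitted, and 232 without the 15 d arrays with many zeros. Single arrays left out gave 31 to 175, over 1.5 times fewer calls being made without transgenic placebo replicate 1 or 2 or RAD001 replicate 2, 3 or 5. Median scaling moved its higher share to 21.5%, against 43.7%, and array weights moved it to 59.9%. For 12 h against 48 h (217 calls) they were 372 with all probe sets apart, 719 with array weights, 344 with only the compared groups, 362 without the 15 d arrays, and 99 to 249 with single arrays left out. A higher share of 35.6% under median scaling stood against 58.1%. The counts for that result fell by over 1.5 times without wild type 12 h replicate 1 or 2, wild type 48 h replicate 1 or 2, RAD001 12 h replicate 1 or 2, or RAD001 48 h replicate 2. Transgenic placebo against wild type (1987 calls) ran from 1564 to 1888 with single arrays left out. Fitting only the 12 h groups could not be done for the comparison of times. The cause of these shifts was not tested.

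Of 145 named genes 120 were called, of which 91 kept the call without any single array and 47 lost it against wild type at 48 h. Ap1ar, Tfdp1, Esrp2 and Stom are not among those 47, because they were called against 48 h with the opposite sign. Against wild type at 48 h the direction turned for Uqcr10 (-0.0087), Abcf1 (-0.093), Pnliprp1 (0.25), Slc30a2 (0.35), Hk2 (-0.48), Psmc4 (-0.20), Pde4b (-0.80), Fam3b (-0.64), Prep (-0.49), Dhrs1 (-0.17), Ap1ar (-0.52), Tfdp1 (-0.31), Esrp2 (-0.64), Stom (0.26), Rpe (-0.044), Elf1 (-0.22) and Pdzd11 (-0.37). For Esrp2 it also turned against the mean of both wild type groups (-0.079).

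With the replicate number as a block, 2081 features were called between RAD001 and wild type, 180 between RAD001 and transgenic placebo and 314 between times, and 2 named genes lost their call. Arrays with the same number in the RAD001 and wild type groups had correlations of deviations of 0.00958, -0.0016, 0.0462 and 0.0535. Those with different numbers ran from -0.0683 to 0.0671. The labels do not say whether arrays with the same number share more than that number, and so few pairs cannot settle it.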
